A study of Mus musculus with 12 samples.

Results

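Red-cell membrane and skeleton genes were followed in splenic T cell libraries of mice infused with Ang II or sham. The set held 8 genes of the 49315 in the count table, chosen by name: Slc4a1, Epb42, Ank1, Sptb, Rhag, Rhd, Kel and Ermap. All 8 were found in the table and passed the filter on low counts in every comparison.

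RNASeq was done on T cells isolated from mouse spleen by magnetic negative selection. The mice were 12-week-old males, and 3 animals gave 1 library each in 4 groups. WT mice received vehicle (WT sham) or Ang II at 490 ng/kg/d (WT Ang II) for 14 days from osmotic minipumps. Mice with a global deletion of miR-214 received the same infusions and formed the miR-214-/- sham and miR-214-/- Ang II groups. Ang II infusion is a standard model of hypertension, and the sequencing asked how it changes T cell gene expression with and without miR-214. The deletion was present in all cells of these mice, not in T cells alone. Mir214 was listed at 0 counts in all 12 libraries, and poly(A) selection loses mature miRs, so this gene could not check the genotypes. Total counts were between 21126874 and 29605988 per library.

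The membrane of the mature red cell is held by a spectrin mesh that is fastened to the lipid bilayer at protein complexes. The anion exchanger encoded by Slc4a1 (band 3) binds ankyrin, the product of Ank1. Protein 4.2, from Epb42, steadies that bond, and ankyrin holds β-spectrin, from Sptb. The Rh proteins encoded by Rhag and Rhd sit in the same complex. The Kell protein from Kel is an endopeptidase joined to the Xk protein, and Ermap encodes the carrier of the Scianna blood group, a member of the immunoglobulin superfamily. These genes are switched on as erythroblasts mature under the factors GATA1 and KLF1. T cells use related spectrin and anion exchanger genes, and the mouse spleen is a site where red cells are made.

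In the GRCm38 annotation, Slc4a1 (ENSMUSG00000006574) lies on chromosome 11 from 102348824 to 102366203 on the minus strand. Epb42 lies on chromosome 2 from 121017891 to 121037072, Ank1 on chromosome 8 from 22974844 to 23150497 and Sptb on chromosome 12 from 76580488 to 76710547. Rhag lies on chromosome 17 from 40811126 to 40840754 and Kel on chromosome 6 from 41686330 to 41704339. Rhd, from 134864536 to 134896172, and Ermap, from 119175457 to 119190011, are both on chromosome 4 but are not neighbours. All 8 are protein-coding and were counted over exons. Ank1 shared 862 of its 13527 annotated exon bases with the antisense gene Gm15816, which had at most 34 counts in a library. Sptb shared 1 base with Plekhg3, and the other 6 genes shared none.

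Promoter windows from RefSeq (GRCm38.p6, 250 bases before to 50 after the start of transcription) were found for 6 of the 8 genes. Slc4a1 and Ank1 had no entry. The windows were searched on both strands for the GATA motif, spelled AGATAA with an alternative T in the first place and an alternative G in the last, and for CCNCNCCC, the CACC-box motif bound by KLF factors. A GATA motif was present in 6 of 6 windows, against 29.8% of 32851 windows of all genes. The CACC-box motif was present in 2 of 6, against 49.5% of all windows. A match describes the letters in the window and does not show that a factor was bound.

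The bases upstream of the start are shown for the 4 genes whose upstream GATA motif lay nearest to it, with each motif in capitals (TTATCA is TGATAA read on the opposite strand). The windows are chr6:41704326-41704575 (minus strand), chr4:134864286-134864535 (plus strand), chr17:40810899-40811148 (plus strand) and chr4:119189996-119190245 (minus strand), each written 5′ to 3′ along the gene.
Kel: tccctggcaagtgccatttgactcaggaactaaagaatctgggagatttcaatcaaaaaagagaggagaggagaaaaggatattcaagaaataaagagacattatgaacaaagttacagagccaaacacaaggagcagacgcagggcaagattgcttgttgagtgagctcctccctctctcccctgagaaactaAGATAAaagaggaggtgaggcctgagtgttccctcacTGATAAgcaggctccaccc
Rhd: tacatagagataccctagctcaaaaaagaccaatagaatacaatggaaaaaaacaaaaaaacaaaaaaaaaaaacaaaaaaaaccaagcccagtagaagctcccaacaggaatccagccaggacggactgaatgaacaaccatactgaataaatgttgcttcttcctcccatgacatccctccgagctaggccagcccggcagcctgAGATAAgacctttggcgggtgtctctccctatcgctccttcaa
Rhag: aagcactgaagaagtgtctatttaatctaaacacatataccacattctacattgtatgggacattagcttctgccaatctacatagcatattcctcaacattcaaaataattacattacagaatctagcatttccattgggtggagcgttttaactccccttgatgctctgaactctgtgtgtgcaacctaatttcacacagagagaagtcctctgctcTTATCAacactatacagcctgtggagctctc
Ermap: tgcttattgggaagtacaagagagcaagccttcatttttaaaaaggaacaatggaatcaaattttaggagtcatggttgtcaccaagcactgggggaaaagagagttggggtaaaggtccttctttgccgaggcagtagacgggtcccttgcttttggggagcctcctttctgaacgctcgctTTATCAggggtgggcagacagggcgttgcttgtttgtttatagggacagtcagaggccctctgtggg

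Kel held a pair of GATA motifs on the strand of the gene, beginning 56 and 19 bases before the start. The motif of Rhd began 43 bases before the start, and those of Rhag and Ermap, on the opposite strand, 31 and 67 bases before it. In Epb42 the only match lay farther away, 226 bases before the start, and in Sptb it lay 13 bases into the transcript. Sptb also held 3 CACC-box matches upstream, 2 of which overlap each other, and Rhd held 1 just inside the transcript.

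Splenic T cell libraries of WT mice had 8 of 8 genes higher after Ang II than after sham. Log2 fold changes were between 3.31 and 4.33, with a median of 3.72. Over all genes tested in this comparison, 7.01% were called higher and the median was -0.02. Levels below are CPM, counts per 1000000 counts of the library after TMM scaling, listed for replicates 1, 2 and 3 of a group. Calls required edgeR's quasi-likelihood test to give an adjusted p under 0.05 and a log2 fold change beyond 1 in either direction. In bulk RNA, more cells of a type and more RNA per cell cannot be told apart. The libraries also held transcripts that mark other cells, given below, so the cell of origin was not shown.

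RNA of the anion exchanger gene and of the gene for the protein that steadies it both rose. Slc4a1 was at 13.7, 5.36 and 47.8 CPM in WT sham and at 449, 490 and 239 CPM in WT Ang II. The lowest Ang II library stood well above the highest sham library, and the log2 fold change was 4.17 ± 0.76 (SE, n = 3 per group, adjusted p = 0.0142 in edgeR). Epb42, which stabilises band 3 on ankyrin, was at 1.61, 1.43 and 4.32 CPM in WT sham and at 42, 44.3 and 25.5 CPM in WT Ang II. Both genes had their lowest sham value in replicate 2. The log2 fold change of Epb42 was 3.95 ± 0.46 (SE, edgeR adjusted p = 0.00362).

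Ank1, the anchor between band 3 and spectrin, was at 6.63, 17.3 and 12.5 CPM in WT sham and at 67.8, 196 and 157 CPM in WT Ang II. Its log2 fold change was 3.55 ± 0.48 (SE, edgeR adjusted p = 0.00594). Sptb, the β chain of spectrin, was at 9.29, 15.2 and 21.4 CPM in WT sham and at 119, 263 and 208 CPM in WT Ang II. It had the smallest error of the 8 genes, with a log2 fold change of 3.70 ± 0.39 (SE, edgeR adjusted p = 0.00261). For both genes replicate 1 was the lowest library in each group.

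Both Rh genes rose. Rhag, which the Rh complex needs to reach the membrane, was at 1.79, 4.25 and 2.69 CPM in WT sham and at 25.3, 82.9 and 66.5 CPM in WT Ang II. It had the largest change of the 8 genes, 4.33 ± 0.52 on the log2 scale (SE, edgeR adjusted p = 0.00403). Rhd, the Rh antigen carrier, was at 3.84, 7.54 and 5.33 CPM in WT sham and at 31.2, 106 and 75.6 CPM in WT Ang II. Its log2 fold change was 3.68 ± 0.48 (SE, edgeR adjusted p = 0.00520). For both genes WT Ang II replicate 2 was the highest library and replicate 1 the lowest of its group.

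Of the remaining blood-group genes, Kel was at 2.53, 7.7 and 4.73 CPM in WT sham and at 40.1, 96.8 and 60.7 CPM in WT Ang II. Its log2 fold change was 3.73 ± 0.47 (SE, edgeR adjusted p = 0.00461). Ermap was at 12.9, 40.7 and 15.5 CPM in WT sham and at 79.6, 330 and 270 CPM in WT Ang II. It had the smallest change, 3.31 ± 0.64 (SE, edgeR adjusted p = 0.0170), and for its level the lowest Ang II library, at 79.6 CPM, stood closest to the highest sham library, at 40.7 CPM. All 8 genes had every Ang II library above every sham library, as did 19.2% of all genes tested. For a single gene, 3 libraries against 3 give an exact permutation p of 0.1 at the lowest, and the calls therefore depend on the variance edgeR pools over genes.

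**Figure D1:**
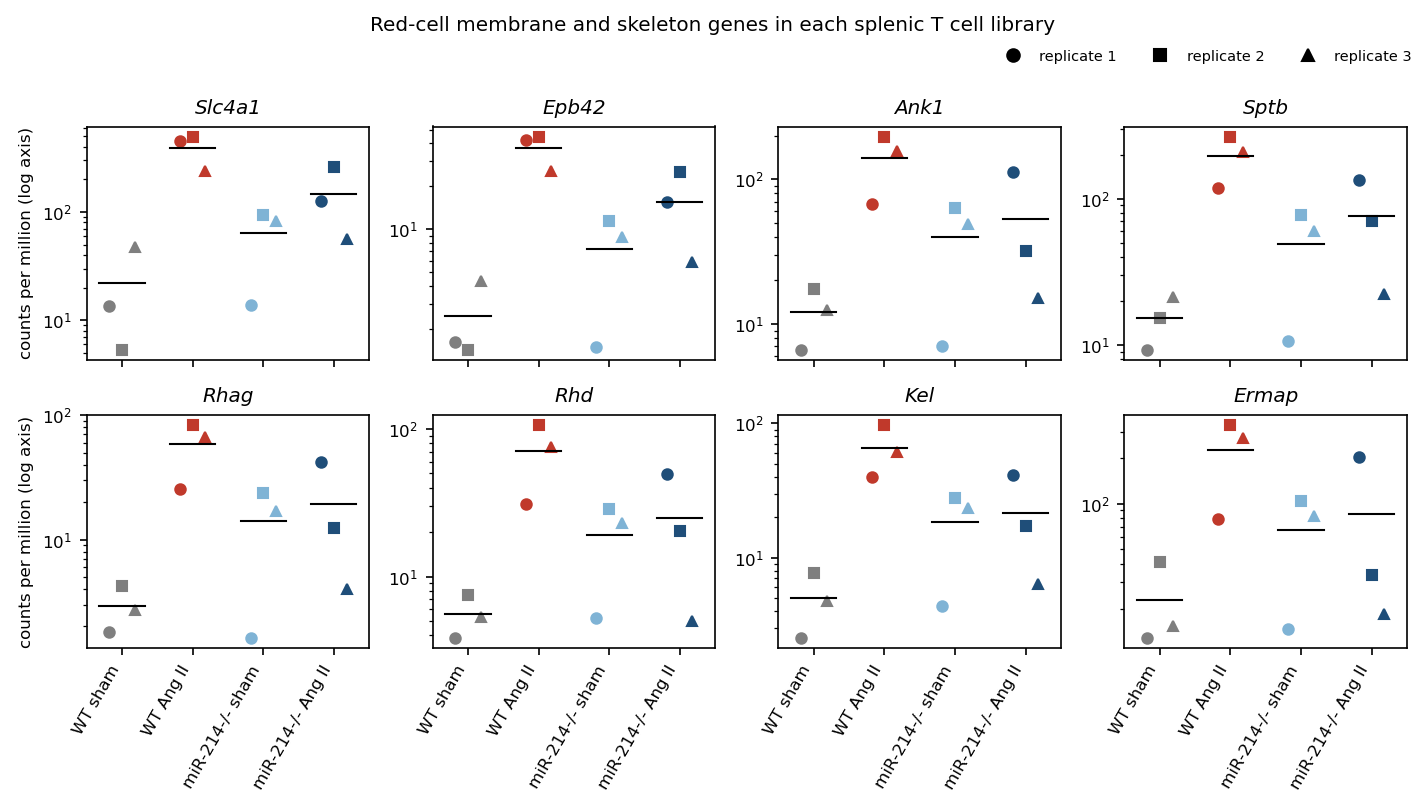
Levels in CPM (log axis) of the 8 genes in the 12 libraries, with a panel per gene, symbols for replicates 1 to 3 and a bar at the group mean. In each panel the 3 WT Ang II libraries lie above the 3 WT sham libraries, while miR-214-/- sham replicate 1 lies near the WT sham libraries and the other 2 miR-214-/- sham libraries lie above them.

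The call was lost for Slc4a1 and Ermap without WT sham replicate 1 (edgeR adjusted p = 0.0641 and 0.0671). For Ermap it was also lost without WT sham replicate 3 (0.0678) and without WT Ang II replicate 3 (0.0567).

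Markers of other cells moved in the same libraries. The 8 genes together made up 52.3 to 114 CPM in WT sham and 854 to 1609 CPM in WT Ang II. Red-cell precursor markers, none of them among the 8, went from 433 to 538 CPM in WT sham to 1074 to 5291 CPM in WT Ang II, and 5 of 11 were called higher by edgeR and 10 of 11 by DESeq2. Neutrophil markers went from 185 to 230 CPM to 1026 to 3132 CPM, with 7 of 7 called higher by both. T cell markers, which include the CD3 chains and Lck, made up 3554 to 3998 CPM in WT sham and 2400 to 2803 CPM in WT Ang II. All 9 were lower, by 0.35 to 0.59 on the log2 scale, and none reached the fold threshold, although 8 had an edgeR adjusted p under 0.05. The erythroblast surface markers Tfrc and Kit and 1 of 5 megakaryocyte markers were also called higher by edgeR, and DESeq2 called 4 of those 5. B cell (4), macrophage (5) and NK cell (2) markers had 0 calls by edgeR and DESeq2 and 0 genes at an unadjusted p under 0.05. Their libraries spread widely. Macrophage markers summed to 127 to 358 CPM in WT sham and 134 to 869 CPM in WT Ang II. B cell markers summed to 47.5 to 216 CPM and 75.8 to 117 CPM, and NK cell markers to 26.5 to 63 CPM and 17 to 32.5 CPM. The part of the marker shifts in the rise of the 8 genes was not tested.

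In the miR-214-/- libraries none of the 8 genes was called between Ang II and sham, by edgeR or by DESeq2. Of all genes, edgeR called 0% and DESeq2 0.391%, and the median log2 fold change was 0.03. The log2 fold changes were between 0.25 and 1.23 with a median of 0.46, edgeR adjusted p values were between 0.535 and 0.921, and 0 of 8 had an unadjusted p under 0.05, against 12.2% of all genes. Libraries of the same group differed widely. Rhag, for example, was at 1.62, 23.6 and 16.9 CPM in miR-214-/- sham and at 41.8, 12.3 and 4.02 CPM in miR-214-/- Ang II. Slc4a1 was at 13.8, 94.7 and 81.7 CPM in miR-214-/- sham and at 127, 259 and 56.8 CPM in miR-214-/- Ang II. In both genes sham replicate 1 was the lowest sham library and Ang II replicate 3 the lowest Ang II library, as they were for all 8.

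The anchor and skeleton genes had a similar spread. Ank1 was at 7.02, 63.6 and 48.8 CPM in miR-214-/- sham and at 113, 31.9 and 15.2 CPM in miR-214-/- Ang II. Sptb was at 10.6, 77.3 and 59.8 CPM in miR-214-/- sham and at 135, 70.6 and 22.3 CPM in miR-214-/- Ang II. Epb42 was at 1.5, 11.5 and 8.77 CPM in miR-214-/- sham and at 15.6, 25.4 and 5.85 CPM in miR-214-/- Ang II. Ang II replicate 1 was the highest library of its group for Ank1 and Sptb, and replicate 2 for Epb42. Rhd was at 5.23, 28.6 and 23.1 CPM in miR-214-/- sham and at 49.5, 20.4 and 4.98 CPM in miR-214-/- Ang II. Kel was at 4.36, 27.7 and 23.4 CPM in miR-214-/- sham and at 41.5, 17.2 and 6.37 CPM in miR-214-/- Ang II. Ermap was at 14.7, 104 and 82.1 CPM in miR-214-/- sham and at 203, 33.5 and 18.6 CPM in miR-214-/- Ang II. The groups overlapped for every one of the 8 genes.

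The intervals left room for changes in either direction. The 95% interval of the log2 fold change ran from -1.93 to 2.90 for Rhag, from -0.54 to 2.99 for Slc4a1 and from -1.96 to 2.68 for Ermap. The median changed sign, to -0.05 without sham replicate 1 and to -0.60 without Ang II replicate 1 of miR-214-/-. Summed neutrophil markers lay between 216 and 891 CPM in miR-214-/- sham and between 533 and 2924 CPM in miR-214-/- Ang II, and T cell markers between 3327 and 3743 CPM and between 2784 and 3695 CPM. Red-cell precursor markers lay between 345 and 574 CPM in miR-214-/- sham and between 572 and 4381 CPM in miR-214-/- Ang II. None of the 11 was called, and 6 had an unadjusted p under 0.05. Their part in the spread was not tested.

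Comparison of the sham groups showed higher values in miR-214-/- for all 8 genes, but none was called by edgeR or DESeq2. Of all genes, edgeR called 0.0189% and DESeq2 0.289%, with a median difference of -0.01. The median log2 difference was 1.70, the range 1.51 (Slc4a1) to 2.26 (Rhag), and 5 of 8 had an unadjusted p under 0.05, against 6.67% of all genes, with edgeR adjusted p values from 0.701 to 0.811. The layout was uneven. In miR-214-/- sham replicates 2 and 3, 8 of 8 genes were above the range of the WT sham libraries, whereas in replicate 1, 7 of 8 were inside it and Rhag was below. Summed, the 8 genes reached 58.9 CPM in miR-214-/- sham replicate 1, 431 CPM in replicate 2 and 344 CPM in replicate 3. Without replicate 1, Rhag and Rhd were called higher than in WT sham (edgeR adjusted p = 0.0464 for each), where 0.184% of all genes were called. Neutrophil markers had higher values in miR-214-/- sham for 7 of 7 genes, with a median log2 difference of 1.47 and 4 at an unadjusted p under 0.05, and edgeR called none and DESeq2 only Mpo. They summed to 216 to 891 CPM, against 185 to 230 CPM in WT sham. Red-cell precursor markers summed to 345 to 574 CPM, against 433 to 538 CPM in WT sham, with a median log2 difference of 0.75. Of the 11, 6 had higher values in miR-214-/- sham, among them Klf1 and Gata1, while the globin genes and Alas2 had lower values. The median therefore mixes both directions. So do the 7 of 11 with an unadjusted p under 0.05, where Hba-a2 and Hbb-bs were lower and the others higher. Of the 11, edgeR called none and DESeq2 only Hba-a2 (log2 difference in DESeq2 -1.22). The part of these markers in the values of the 8 genes was not tested.

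Among Ang II mice, miR-214-/- libraries averaged lower than WT for all 8 genes, with a median log2 difference of -1.40 and a range from -1.59 (Kel) to -1.24 (Epb42). None was called by edgeR or DESeq2, and of all genes they called 0% and 0.143%, with a median difference of 0.00. The edgeR adjusted p values were between 0.569 and 0.611, and 3 of 8 genes had an unadjusted p under 0.05, against 8.56% of all genes. Epb42 was the only gene whose groups did not overlap, with a highest miR-214-/- library of 25.4 CPM and a lowest WT library of 25.5 CPM. Of all genes, 5.94% had every miR-214-/- library below every WT library. In miR-214-/- Ang II replicate 1, 8 of 8 genes were above the WT sham range, in replicate 2, 7 of 8 were above it, and in replicate 3, 3 were above it and 5 inside. The median difference was -2.47 when miR-214-/- Ang II replicate 1 was left out, and still none was called. T cell markers had higher values in miR-214-/- Ang II for 9 of 9 genes, with a median log2 difference of 0.38 and 7 at an unadjusted p under 0.05. They summed to 2784 to 3695 CPM, against 2400 to 2803 CPM in WT Ang II. Red-cell precursor markers had lower values for 11 of 11, with a median of -0.71 and 1 (Nfe2) at an unadjusted p under 0.05, and summed to 572 to 4381 CPM against 1074 to 5291 CPM. No gene of these lists was called by edgeR or DESeq2, and their part in the differences of the 8 genes was not tested. These 2 comparisons use the same libraries as the comparisons of Ang II with sham, so they are not separate evidence.

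**Figure D2:**
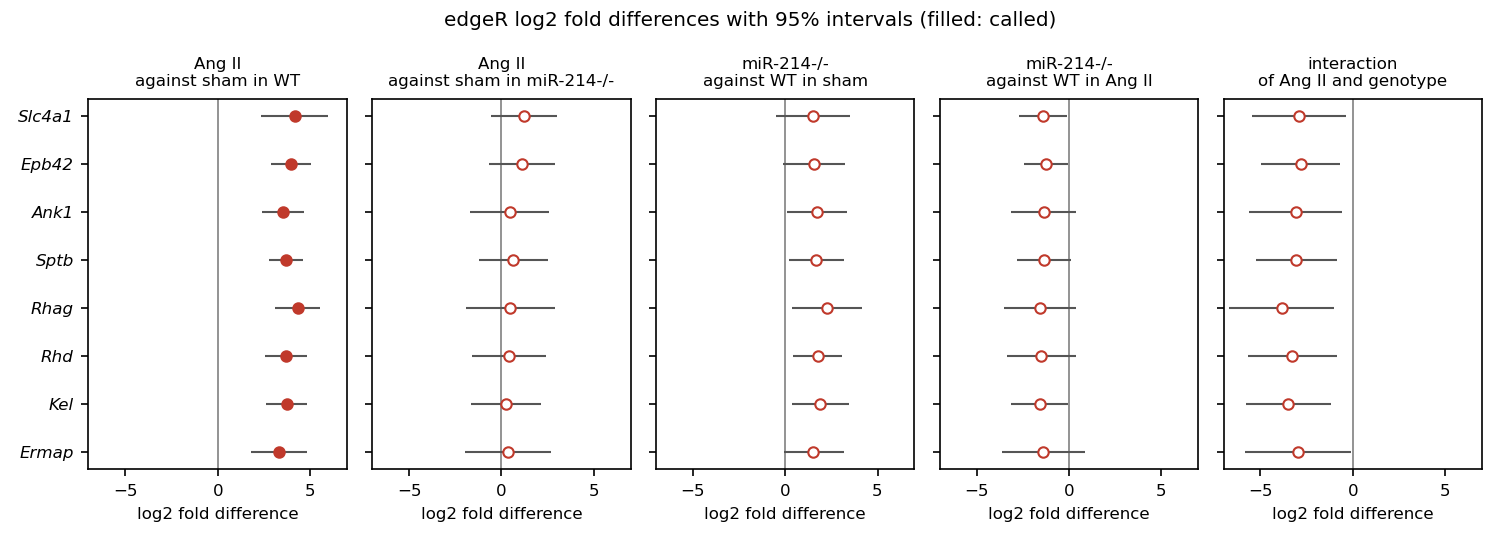
Log2 fold differences of the 8 genes in the 4 comparisons and for the interaction. The 95% intervals were derived from edgeR's test, and filled points mark called genes. Filled points occur only for Ang II against sham in WT, where the 8 values lie between 3.31 and 4.33, and the interaction values lie between -3.85 and -2.82.

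Whether the response to Ang II differed between genotypes was tested as the interaction over 12 libraries. The log2 difference between the responses was negative for all 8 genes, from -3.85 for Rhag to -2.82 for Epb42, with a median of -3.08. None of the 8 passed an adjusted p under 0.05 in edgeR, where values were between 0.220 and 0.329, or in DESeq2. Of all genes, 0.00596% passed in edgeR and 3.22% in DESeq2, and the median was 0.01. Each of the 8 genes had an unadjusted p under 0.05, against 14.8% of all genes. The 95% intervals were derived from the same test, so their excluding 0 restates this and adds no evidence. The interval closest to 0 ran from -5.83 to -0.07 for Ermap. Leaving out 1 library changed the number of genes that passed the adjusted p. Without miR-214-/- Ang II replicate 1, Ermap, Ank1, Rhag, Kel and Rhd passed (edgeR adjusted p from 0.0391 to 0.0473), as did 5.35% of all genes, and the median was -4.26. With the mean of the red-cell precursor markers as a covariate the median was -1.59, and 0 of 16770 genes passed, the 8 included. The markers include Klf1 and Epor, whose log2 CPM had an r of 0.997 and 0.995 with that of Ermap. The covariate thus carries part of the members' own pattern, and the cause of the smaller median was not tested.

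The 8 genes did not move as 1 block from library to library. A library high in Slc4a1 was not always high in Ermap, a contrast noticed after the values were seen. WT sham replicate 2 had 135 counts of Slc4a1 and 1026 of Ermap, a ratio of 0.132 (exact 95% interval 0.109 to 0.158, counting error only). In miR-214-/- Ang II replicate 2 the counts were 7147 and 925, a ratio of 7.73 (7.21 to 8.28). WT Ang II replicate 1 also stood high, at 5.64, while replicates 2 and 3 of that group were at 1.48 and 0.885. The 3 miR-214-/- sham libraries were close to each other, at 0.941, 0.910 and 0.995, although their levels of both genes differed by over 6-fold. Over the 12 libraries the ratio spanned 58.6-fold, and that of Epb42 to Ermap 21.7-fold.

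Epb42 went with Slc4a1, while Ank1, Rhag, Rhd and Kel were closer to Ermap. Sptb was closest to Ank1, Rhag, Kel and Rhd. Over the 12 libraries Pearson's r of log2 CPM was 0.99 between Slc4a1 and Epb42 and 0.67 between Slc4a1 and Ermap. It was 0.97 to 0.98 between Ermap and each of Ank1, Rhag and Rhd and 0.96 for Kel. Sptb had an r of 0.98 with Ank1, Rhag and Kel and 0.97 with Rhd. Its r was 0.94 with Epb42, 0.90 with Slc4a1 and 0.92 with Ermap. These points share their libraries and groups, so the values are descriptions. Ratios of counts within these groups spanned less, 2.93-fold for Slc4a1 to Epb42, 1.97-fold for Rhag to Ank1 (0.215 to 0.424), 2.83-fold for Rhd to Rhag and 2.95-fold for Kel to Rhag.

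**Figure D3:**
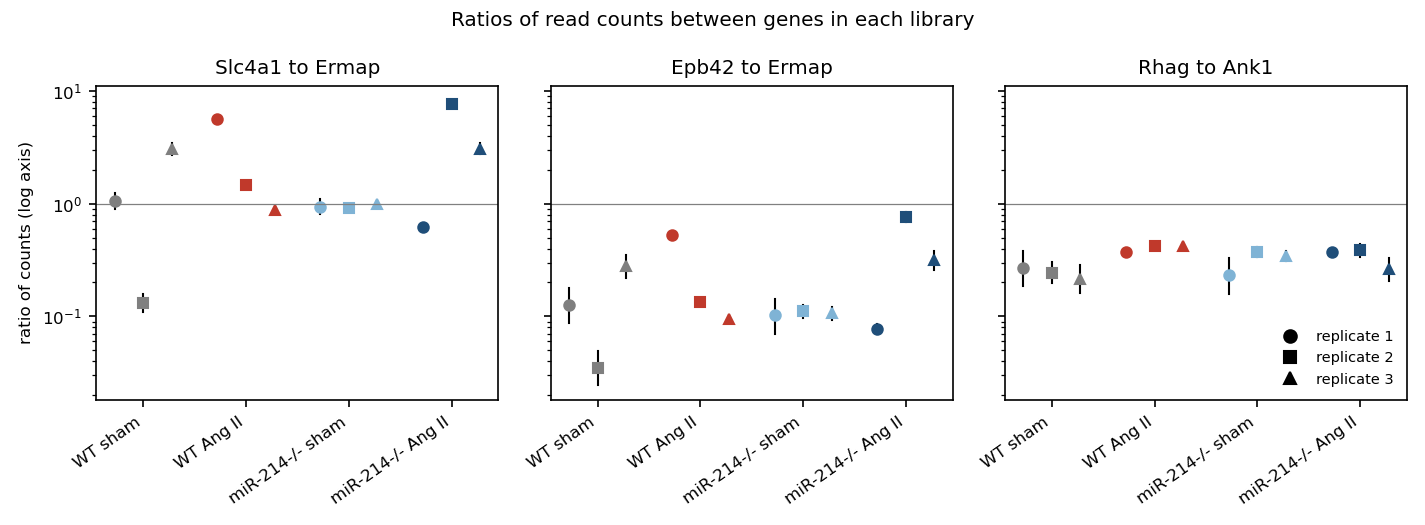
Ratios of read counts (log axis) of Slc4a1 to Ermap, Epb42 to Ermap and Rhag to Ank1 in the 12 libraries, with exact 95% intervals for counting error. The first runs from 0.132 to 7.73 and the second from 0.0351 to 0.760, with peaks in WT Ang II replicate 1 and miR-214-/- Ang II replicate 2, whereas the third stays between 0.215 and 0.424.

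Globin had yet another layout, with 0.794 to 23.6 counts of Hbb-bs per count of Slc4a1. Hbb-bs, which encodes a β-globin chain, was at 214, 127 and 187 CPM in WT sham and at 2147, 572 and 190 CPM in WT Ang II. In miR-214-/- it was at 117, 121 and 120 CPM after sham and at 113, 1977 and 228 CPM after Ang II. Its high libraries were the same pair that stood out in the ratio of Slc4a1 to Ermap. Klf1, which encodes the erythroid factor KLF1, was instead highest in WT Ang II replicates 2 and 3, at 172 and 137 CPM, against 47.1 CPM in replicate 1. In miR-214-/- Ang II, Klf1 was at 97.6 CPM in replicate 1 and at 21.3 and 11.6 CPM in the others.

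Relative to the mean log2 CPM of the red-cell precursor markers, Slc4a1 stood at -0.63 ± 1.66 in WT sham and 1.76 ± 0.15 in WT Ang II (SD, n = 3). Epb42 stood at -3.40 ± 0.89 and -1.61 ± 0.17. These 2 genes varied little against the markers in either Ang II group, with an SD of at most 0.22, while Ermap had an SD of 1.48 in WT Ang II and 1.72 in miR-214-/- Ang II. The markers include globins and Alas2, which were highest in WT Ang II replicate 1 and, within miR-214-/- Ang II, in replicate 2. Slc4a1 and Epb42 were also highest in replicate 2 of miR-214-/- Ang II. In WT Ang II they were highest in replicate 2 (490 and 44.3 CPM), with replicate 1 close (449 and 42 CPM).

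Per kilobase of annotated exon, Slc4a1 was the most abundant of the 8 in each group, at 80.2 ± 27.5 CPM per kilobase in WT Ang II (SD, n = 3). Rhd at 44.5 ± 23.7 and Ermap at 42.7 ± 24.7 CPM per kilobase came next. Rhag and Kel were at 24.9 ± 12.7 and 23.7 ± 10.4, Sptb at 16.2 ± 6.0, Ank1 at 10.4 ± 4.86 and Epb42 at 6.88 ± 1.89 CPM per kilobase. All 7 pairs of neighbours in this order had overlapping ranges, also in the other groups. In WT sham the order opened with Slc4a1 at 4.55 ± 4.59 and Ermap at 4.35 ± 2.90 CPM per kilobase and closed with Epb42 at 0.453 ± 0.299. Ank1 has 17 annotated transcripts, so its exon length of 13527 bases may exceed that of the transcript present.

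Other genes of the red-cell skeleton were divided. Of 10, 4 were called higher in WT Ang II and none lower, with a median log2 fold change of 0.38. Add2 (β-adducin), Dmtn (dematin, which bundles actin) and Tmod1 (which caps actin filaments) rose by 3.96 ± 0.58, 4.31 ± 0.45 and 3.05 ± 0.67 (SE). Epb41, which encodes protein 4.1R and is also used outside red cells, was at 241, 254 and 293 CPM in WT sham and at 364, 277 and 244 CPM in WT Ang II, a log2 difference of 0.19 (95% interval -0.17 to 0.55). Add1, Add3, Tpm1, Tpm3 and Mpp1 had log2 differences between -0.47 and 0.47. Under the fold threshold, Mpp1 was higher (0.47, edgeR adjusted p = 0.00763) and Add3 lower (-0.47, edgeR adjusted p = 0.0135).

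Among genes for surface proteins that carry other blood groups or sit beside the Rh and Kell proteins, 5 of 9 tested were called higher in WT Ang II. The median log2 fold change of the 9 was 1.01. Xk, whose protein binds Kell, rose by 2.00 ± 0.35 (SE, edgeR adjusted p = 0.0121), from 8.07, 10.1 and 11.6 to 19.8, 50.6 and 46.9 CPM. Gypc, whose protein ties the membrane to protein 4.1R, rose by 1.01 ± 0.23, Art4 by 1.20 ± 0.25 and Abcb6 by 1.46 ± 0.38 (SE). Cd47, which T cells also carry, was between 400 and 467 CPM in every library, and its log2 difference in WT was 0.13 (95% interval -0.01 to 0.28). Slc14a1, Cd44 and Cd55 had log2 differences from -0.60 to 0.71. Cd44, at 0.71, was under the fold threshold but had an edgeR adjusted p of 0.00763. Icam4 had 0 counts in all 12 libraries, which allows an expected count of up to 3 in each library taken alone. Bcam had at most 10 counts in a library.

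Among 8 red-cell transporters and channels, 3 were called higher in WT Ang II, with a median log2 fold change of 0.67. Aqp1, a water channel, rose from 17.9, 49.2 and 25.4 CPM to 133, 437 and 359 CPM, by 3.34 ± 0.54 on the log2 scale (SE, edgeR adjusted p = 0.00944). Stom (stomatin) and Abcg2 rose by 2.67 ± 0.20 and 1.17 ± 0.19 (SE, edgeR adjusted p = 0.00102 and 0.00928). Slc2a1, Slc29a1, Piezo1, Kcnn4 and Atp2b4 had log2 differences from -0.32 to 0.74. Of the 8, 5 were higher at an edgeR adjusted p under 0.05, among them Slc29a1 (0.74, edgeR adjusted p = 0.0383). No tested gene of these 3 lists was called by edgeR in the other 3 pairwise comparisons, where each list had 1 to 3 genes at an unadjusted p under 0.05. DESeq2 called 1, Stom, which was higher in miR-214-/- sham than in WT sham. For the interaction DESeq2 alone passed 3 of them, Stom (log2 difference in DESeq2 -2.17), Art4 (-1.46) and Cd44 (-0.51).

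The members' relatives in other cells were measured beside them. Of 16 paralogs, 11 passed the filter and none was called in any comparison by edgeR or DESeq2. Their log2 differences in WT ran from -0.40 to 2.06, with a median of 0.05. In WT 3 of the 11 had an unadjusted p under 0.05, against 35.6% of all genes. Sptan1 and Sptbn1, the non-erythroid spectrin chains, were the most abundant. Sptbn1 was at 610, 624 and 659 CPM in WT sham and at 531, 457 and 471 CPM in WT Ang II, a log2 difference of -0.35 (95% interval -0.55 to -0.15, edgeR adjusted p = 0.0318), under the fold threshold. Slc4a2, an anion exchanger of many cell types, was at 70.1, 71.6 and 73 CPM and at 66.5, 64.1 and 57.2 CPM, a log2 difference of -0.17. The ankyrin paralogs Ank2 and Ank3 were low in every library, at 0 to 1.53 CPM and 0.109 to 0.465 CPM. Near that floor, Ank2 was at 0.742, 0.119 and 0 CPM in WT sham and at 0.633, 1.53 and 1.44 CPM in WT Ang II.

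**Figure D4:**
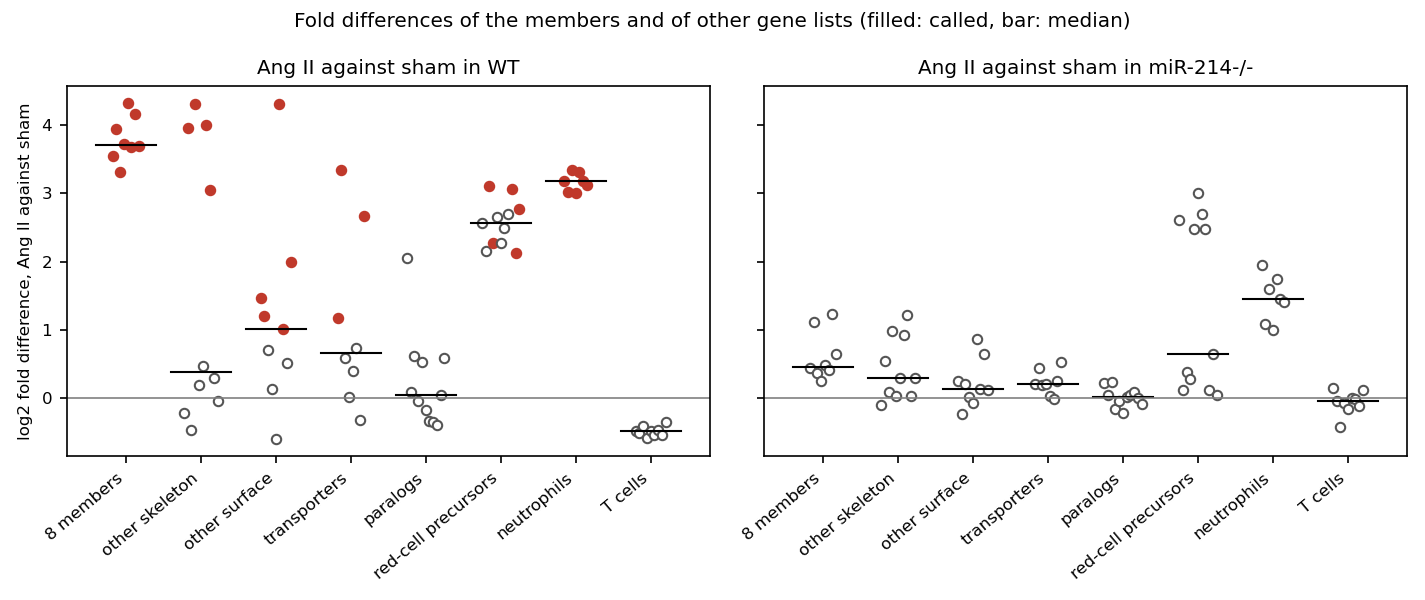
Log2 fold differences between Ang II and sham for each tested gene of the 8 members and of 7 other lists, in WT and in miR-214-/-, with filled points for called genes and a bar at the median. In WT the members have a median of 3.72, neutrophil markers of 3.18, red-cell precursor markers of 2.57 and paralogs of 0.05, and in miR-214-/- no point is filled.

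Genes with the pattern most like that of the 8 were sought among 13756 others over the 12 libraries. The highest Pearson's r with the mean log2 CPM of the 8 were those of Hemgn (0.997), Tspan33 (0.996), Tinagl1 (0.995), Btnl10 (0.992) and Dmtn (0.990). The lowest were those of Orai2 (-0.950), Nlrc3 (-0.946) and Iqce (-0.934). The libraries share groups and cell content, so these values describe the pattern only. Chosen after the split between Slc4a1 and Ermap was seen, the genes most like Slc4a1 alone were Ypel4 (0.984) and Trim10 (0.983), and those most like Ermap alone were Tspan8 and Slc38a5 (0.998 each) and Klf1 (0.997).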

How the data were processed

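The authors captured mRNA with poly(A) selection, sequenced it in paired-end mode (HiSeq), mapped the reads to GRCm38 and counted reads per gene with featureCounts of Subread 1.5.2. The deposited table held raw counts without normalization for 12 libraries, and all 12 columns were used. How strand was treated in counting, and which annotation release was used, is not given in the sources used here, so overlapping and antisense genes are uncertain. Of 49315 gene identifiers, 49056 were matched to GENCODE vM21 of GRCm38, and the 259 not matched held 0.0245% of counts. Totals per library were between 21126874 and 29605988. A 0 in a single library allows an expected count of up to 3, and intervals on single libraries cover counting error only.

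Tests were run in edgeR 4.0.16 under R 4.3.3 (filterByExpr, TMM scaling, quasi-likelihood test, Benjamini-Hochberg adjustment over all genes tested) and, as an alternative, in DESeq2 1.42.0 with independent filtering at 0.1. Each comparison of 3 against 3 mice was fitted on its own 6 libraries, and the interaction on 12. Each mouse gave 1 library, and 0 pairs of replicate libraries were identical. The SE of a log2 fold change was derived, as its absolute value over the square root of the F statistic of edgeR's test. The 95% intervals used this SE and the t distribution. Log2 CPM used a prior count of 2. Both tests were also run on simulated counts that varied independently from gene to gene. Such counts hold no shifts of cell content shared by many genes, so that run cannot show whether the calls hold here. The 8 genes, the lists and the tests were chosen with earlier results of these data known, and the adjusted-deviance fit is an alternative. The 8 genes were all named, and other listed genes were named if called in WT or if they encode direct partners, except for some results not reported here. The alternatives tried were DESeq2, RLE and library size scaling, filters, adjusted deviances, a robust fit, the replicate block, the adjusted p alone, 1 fit over 12 libraries, a covariate of red-cell precursor markers and leaving out each library. Fits without 2 libraries were added after the data were seen. Ahsp, of the red-cell precursor list, was not matched. Counts and figures were handled in Python 3.11.15 with pandas 2.3.3 and matplotlib 3.10.9.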

Additional observations from a re-analysis of the deposited data

How the results depend on the processing

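In WT, 8 of 8 genes were called under DESeq2, RLE or library size scaling, no filter, 10 counts in every library, adjusted deviances, a robust fit, the adjusted p alone and 1 fit over 12 libraries. Leaving out 1 library gave 6 to 8 calls and a median log2 fold change of 3.40 to 3.98. The median was 4.30 without both WT sham replicate 2 and WT Ang II replicate 1, a pair chosen after the data were seen. In miR-214-/- no setting called any of the 8. The median lay between -0.60 and 1.01 when 1 library was left out, and was -1.06 without both sham replicate 1 and Ang II replicate 1, also chosen after the data were seen. Between the sham groups 0 to 2 genes were called when 1 library was left out. Between the Ang II groups the median then lay between -2.47 and -0.98. For the interaction 0 to 5 genes passed when 1 library was left out, with a median of -4.26 to -2.59. It was -1.59 with the covariate of red-cell precursor markers. Without the miR-214-/- pair 7 genes passed, with a median of -4.73. The causes were not tested.

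Over all genes, calls in WT went from 1169 to between 564 and 1338 when 1 library was left out, and to 3009 with the adjusted p alone. In miR-214-/- calls went from 0 to 51 with DESeq2, and to 76 without the pair. No filter gave 3. The sham groups gave 3 calls, against 45 with DESeq2, 9 with no filter, 5 with a robust fit, 0 with 1 fit over 12 libraries and 0 to 30 when 1 library was left out. The Ang II groups gave 0, against 21 with DESeq2. The interaction gave 1, against 444 with DESeq2, 919 without miR-214-/- Ang II replicate 1 and 1550 without the pair.

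Deviations of same-numbered libraries from their group means correlated at 0.20, 0.11 and -0.14 in WT and at -0.56, -0.23 and -0.37 in miR-214-/-. Between genotypes they correlated at 0.02, 0.20 and -0.28 in sham and at -0.42, -0.17 and -0.12 in Ang II. With so few libraries per group, this check cannot decide whether replicate numbers pair the samples. With the replicate block 8 genes were called in WT (median 3.75) and none elsewhere, with medians of 0.04 in miR-214-/-, 1.44 between sham groups, -1.90 between Ang II groups and -2.82 for the interaction.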
